A study of Mus musculus with 24 samples.

Results

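The comparison described here sets cultured mouse neural stem cells (NSC, 4 libraries) against astrocytes taken directly from the adult mouse brain (AdAC direct, 4 libraries), across genes. Members were chosen by place alone: of 49671 genes in the deposited table, the 45231 with a place in the annotation outside the X and Y chromosomes, of which 18941 had enough reads to be tested. The pair of groups was picked with the knowledge that they lay far apart in overall expression, so the size of the gap is given as a description, and the results concern which genes made it up.

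The series holds 24 RNA-seq libraries in 6 groups of 4. Besides the 2 groups compared, these are astrocytes differentiated from the same stem cells with BMP4 (AGES) and astrocytes of neonatal (neoAC) and adult mice that were cultured (CellC) or frozen at once (direct). The NSC came from the C57BL/6N embryonic stem cell line GSC-5003, so from a single line, and grew in N2B27 medium with FGF and EGF (20 ng/ml of each) at passage 50 to 60, the replicates being independent cultures of different passage. The AdAC direct came from C57BL/6J wild-type mice of 100 to 140 days, with the brains of 2 mice pooled per isolation, olfactory bulb and cerebellum removed, the tissue dissociated with enzymes, debris and red cells removed, and the cells bound to magnetic beads through ACSA-2, an epitope of the protein made from Atp1b2, over 2 columns. Mice of both sexes were used, and the sexes within each pool are not stated in the sources used here. No allele or agent was shared by both groups beyond the C57BL/6 background, and culture, age, origin, substrain and growth factors differed together, so their parts in any difference cannot be told apart. In bulk libraries, fewer cells of a type and less RNA per cell cannot be told apart either.

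Neural stem cells divide and can give rise to neurons, astrocytes and oligodendrocytes, and in culture FGF and EGF keep them cycling through receptor tyrosine kinases and the ERK pathway. Mature astrocytes have left the cell cycle. They clear glutamate and potassium from the synaptic cleft, convert glutamate to glutamine, couple through gap junctions, feed lipids and lactate to neighbouring cells and touch blood vessels with water-channel-rich endfeet.

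The NSC libraries held 30371350 to 35192197 counts and the AdAC direct libraries 27904126 to 35440406, with reads on 20777 to 21742 and 24084 to 24550 genes. Levels are given as CPM, the counts scaled to a common library size, which is not corrected for gene length, so levels are compared between libraries and not between genes. A log2 fold change is NSC over AdAC direct, with its standard error (SE, 4 libraries a group), and a gene was called at an adjusted p under 0.05 in edgeR's quasi-likelihood test with Benjamini-Hochberg adjustment. By that rule 16328 genes, 86.2% of those tested, were called. Of these, 7210 were higher in NSC, 38.1% of the genes tested, and 9118 were lower, 48.1%. In 6734 genes (35.6%) every NSC library lay above every AdAC direct library, and in 8650 (45.7%) every NSC library lay below. Against so high a background, a call by itself says little, and the lists below are read by how far they depart from these shares.

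The median log2 fold change over all genes was -0.28, or -0.24 with genes at the counting floor set to their bound. The centre depended on the scaling, with a shift of -0.13 under DESeq2 size factors and of -0.24 when genes had to reach 10 counts in every library. Changes of that size are therefore not given a direction. By fitted fold change, large differences more often ran toward lower levels in NSC than toward higher. Among called genes, 1125 were higher and 4388 lower by more than 3 on the log2 scale, and 79 were higher and 1013 lower by more than 8. Floor genes were not set to their bound in these counts. They include genes of low level without a read in NSC, such as 1110046J04Rik at 0 against 3.73 CPM (-9.93). The gap between 1013 and 79 is thus partly set by the floor.

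**Figure D1:**
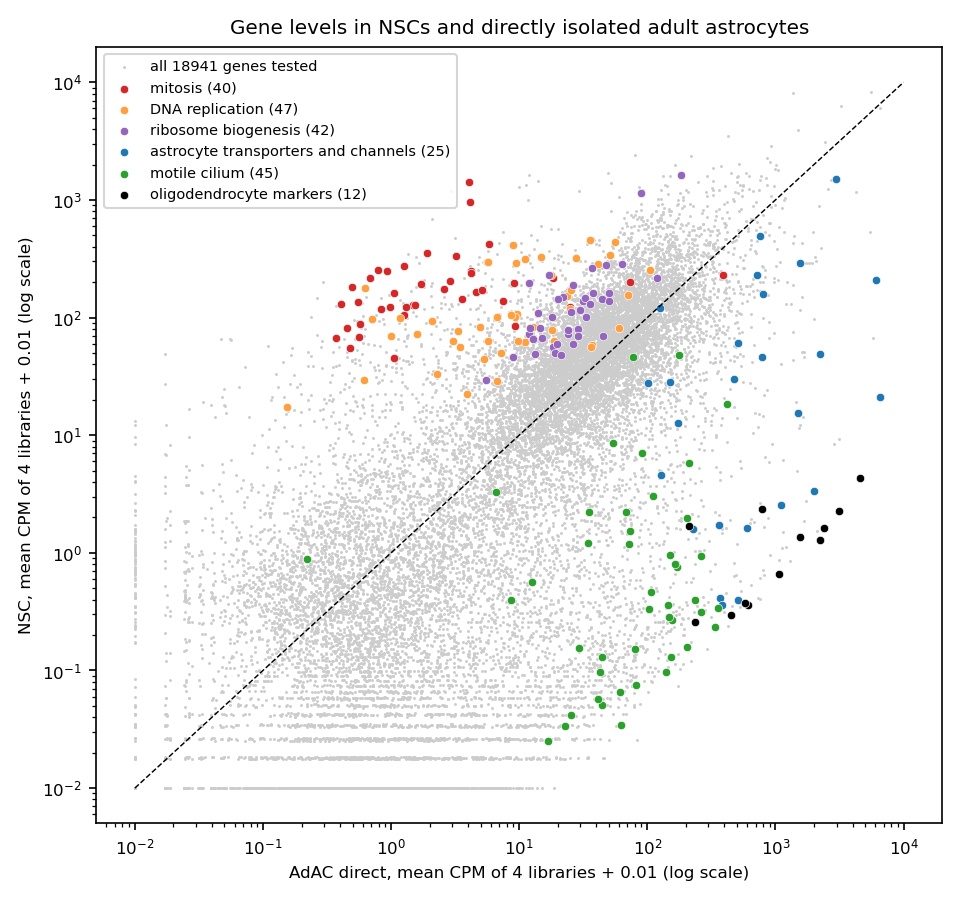
Mean level of each of the 18941 tested genes in AdAC direct (x axis, CPM plus 0.01, log scale) and NSC (y axis, same scale), 4 libraries a group, with the genes of 6 lists coloured. The spread is wider below the diagonal: 1013 called genes were lower in NSC by more than 8 on the log2 scale and 79 were higher. These counts use fitted fold changes, with floor genes not set to their bound.

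Libraries were checked against their labels with markers of the cells they should and should not hold. AdAC direct held the astrocyte transporter list, which includes Atp1b2, at a summed 30297 to 32113 CPM, and NSC at 3204 to 3355. AdAC direct also held the 12 oligodendrocyte markers at 17465 to 18078 CPM, against 14.5 to 21.8 in NSC, with Mbp, a myelin protein, at 4655, 4694, 4762 and 4105 CPM in AdAC direct 1 to 4. Ependymal markers summed to 1541 to 1775 against 16.3 to 25.9 CPM, mural and fibroblast markers to 496 to 521 against 2.71 to 3.38, choroid plexus markers to 103 to 305 against 1.15 to 1.46, and endothelial markers to 94.2 to 99.2 against 1.91 to 4.01. Microglia markers reached 25.1 to 39.2 CPM against 0.911 to 1.79, neuron markers 51.1 to 62.5 against 14.4 to 25.6, and erythroid markers 1.88 to 2.41 against 0.0318 to 0.0669. In NSC, the microglia genes Cx3cr1, Aif1, C1qb and Fcrls, the neuron genes Slc17a6 and Gad2, the oligodendrocyte precursor gene Gpr17 and the haemoglobin genes Hbb-bt and Hba-a2 had no read in any library. The adult libraries thus held markers of several other brain cell types along with those of astrocytes. Oligodendrocyte markers had the highest sum among these other types. The lists differ in their genes and in size, so the sums do not rank the cell types by their share. The part of these other cells in each gene below that they also express was not tested.

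Of these marker lists, all 12 oligodendrocyte, 12 microglia, 7 endothelial, 10 mural and fibroblast, 10 ependymal, 6 choroid plexus and 4 erythroid genes tested were lower in NSC, as were 10 of 11 neuron genes, beside 48.1% of all genes. Of 7 oligodendrocyte precursor genes, 4 were lower, a share near that of all genes, and Bcas1 and Tnr were not called. Median log2 fold changes were -10.48 for oligodendrocytes, -8.03 for ependyma, -7.18 for mural cells and fibroblasts, -7.12 for choroid plexus, -6.40 for microglia, -5.77 for erythroid cells, -5.36 for endothelium, -4.90 for oligodendrocyte precursors and -4.17 for neurons. With floor genes set to their bound, the medians were -6.09 for mural cells and fibroblasts, -5.98 for choroid plexus, -4.45 for microglia, -1.94 for erythroid cells and -3.51 for neurons. Called higher in NSC were Gad1, which makes GABA, at 18.2 CPM in NSC and 2.87 in AdAC direct (log2 fold change 2.67 ± 0.28), and Pdgfra, the PDGF receptor of oligodendrocyte precursors, at 11.4 and 2.41 (2.24 ± 0.24).

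By the fixed rule of size, the genes highest in NSC mixed secreted factors, division genes and a Hox gene. Hoxa5, a trunk and hindbrain patterning factor, had 63.7, 76.4, 56.9 and 63.2 CPM in NSC 1 to 4 and at most 0.0618 in any AdAC direct library, which is at least 698-fold higher in NSC when the adult group is set to the floor of 3 counts. Nptx1, a secreted pentraxin of synapses, stood at 2291, 2867, 2135 and 2138 CPM in NSC and at 2.55, 2.56, 2.88 and 2.68 in AdAC direct (log2 fold change 9.78 ± 0.52, adjusted p = 9.07e-14). Its mean was 21.2 CPM in AGES and at most 27.6 in any primary group, so no other group came near the NSC level. Igfbp3, which binds insulin-like growth factors, had a log2 fold change of 8.67 ± 0.27 and Adam12, a metalloprotease, of 8.39 ± 0.35, and Chrm3, a muscarinic acetylcholine receptor, also 8.39 (SE 0.28). The tumour suppressor locus Cdkn2a had 57.8, 72.4, 47.2 and 51.5 CPM in NSC and 0.0618 to 0.141 in AdAC direct (9.10 ± 0.22, adjusted p = 5.87e-22). Eno1b, an enolase gene with a near-identical copy in Eno1, had a mean of 199 CPM against 0.285. How reads matching several places were counted is not stated in the sources used here, so the share that belongs to Eno1b is uncertain. The division genes Hmmr, Top2a, Cdk1, Bub1 and Exo1 complete the 12.

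At the other end, Larp6, an RNA-binding protein of collagen messages, had 78.5, 88.4, 89.5 and 76.3 CPM in AdAC direct and at most 0.0326 in NSC, at least 865-fold lower there. Kif19a, a kinesin of motile cilia, was at least 825-fold lower in NSC, Rgs22, a regulator of G-protein signalling, at least 821-fold, Cyp27a1, a sterol hydroxylase, at least 713-fold, and Musk, a receptor tyrosine kinase best known from the neuromuscular junction, at least 588-fold. The genes Cldn10, a claudin of astrocytes, Etnppl, which breaks down phosphoethanolamine, and Scara3, a scavenger receptor, had log2 fold changes of -10.78 ± 0.21, -10.82 ± 0.36 and -10.89 ± 0.19. Fa2h, which hydroxylates myelin lipids, had -10.82 ± 0.42, Tmem125, a membrane protein, of -10.96 ± 0.38, and the myelin proteins Mal and Mog of -10.77 ± 0.34 and -10.76 ± 0.36. In AdAC CellC, the cultured counterpart, Fa2h averaged 79.1 CPM, Mal 364 and Mog 116, against 0.344, 1.92 and 0.465 in AGES. Several of these 12 genes are known from oligodendrocytes or ciliated cells, whose marker sums stand above, and the part of those cells was not tested.

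Among the most abundant messages, the 8 highest by mean CPM in NSC were Eef1a1, mt-Cytb, Scd2, Hsp90ab1, Serpine2, Ckb, mt-Nd1 and Tubb5. Those of AdAC direct were Scd2, Apoe, Mbp, Sparcl1, mt-Cytb, Clu, Slc1a3 and Aplp1. Eef1a1, a translation elongation factor, averaged 8032 CPM in NSC and 1370.0 in AdAC direct (2.55 ± 0.10), and Serpine2, a secreted protease inhibitor, 3508 and 425 (3.04 ± 0.13). Apoe, the lipoprotein of astrocytes, stood at 75.6, 86.9, 40.4 and 66.7 CPM in NSC and at 5723, 6679, 5974 and 4758 in AdAC direct (-6.42 ± 0.25), with a mean of 1023 in AGES. Clu, a secreted chaperone, had -8.41 ± 0.16 and Aplp1, of the amyloid precursor family, -8.39 ± 0.31. Scd2, which desaturates fatty acids, was at 4776 to 7685 CPM in NSC and 6196 to 7185 in AdAC direct, and these ranges overlapped (-0.12 ± 0.12, 95% interval -0.37 to 0.14). Without NSC 2, its highest NSC library, Scd2 was called lower (-0.25, adjusted p = 0.0475).

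The astrocyte programme was lower in NSC almost throughout, though a few members stood out. Of 25 transporters and channels, 24 were lower, beside 48.1% of all genes, and none higher, with a median of -4.82. All 24 did so without overlap of libraries, beside 45.7%. The 24 and the median include Atp1b2, which is set apart below. Slc1a2, the main glutamate transporter of mature astrocytes, stood at 233, 122, 217 and 269.8 CPM in NSC and at 6068, 6106, 5958 and 6277 in AdAC direct. The groups were far apart and NSC 2 was the lowest (29-fold lower, log2 fold change -4.86 ± 0.20, adjusted p = 1.39e-17). Slc1a3, the other glial glutamate transporter, was read at 1513, 1571, 1299 and 1615 CPM in NSC and at 3036, 2905, 2926 and 2962 in AdAC direct, only 1.97-fold lower (-0.98 ± 0.13, adjusted p = 2.18e-07). Within each library the log2 ratio of Slc1a3 to Slc1a2 was 2.58 to 3.69 in NSC and -1.08 to -1 in AdAC direct, a ratio of CPM with no correction for length. Aqp4, the water channel of endfeet, was at 1.34 to 2.03 CPM against 539 to 691, Kcnj10, the potassium channel Kir4.1, at 1.81 to 3.89 against 1047 to 1148, and Gja1, the gap junction protein connexin 43, at 13.5 to 16.8 against 1442 to 1538. Slc6a11, a GABA transporter, had a log2 fold change of -9.23 ± 0.23, Slc7a10, which carries serine and glycine, -10.33 ± 0.26, and Slc4a4, the bicarbonate cotransporter, -4.08 ± 0.21. Slc16a1, the lactate transporter MCT1, was the member not called, at 95.7 to 149 CPM in NSC and 119.8 to 140.1 in AdAC direct (-0.08, 95% interval -0.36 to 0.21). Atp1b2 was lower by 5.52 on the log2 scale, but its protein was the handle of the adult sort and its level is no finding.

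Of 30 astrocyte enzymes and secreted proteins, 28 were lower, beside 48.1% of all genes, 1 higher and 1 not called, with a median of -3.36. Glul, glutamine synthetase, was read at 468, 629, 529 and 512 CPM in NSC and at 5603, 5525, 5536 and 5405 in AdAC direct, 10.3-fold lower (-3.37 ± 0.13, adjusted p = 3.96e-18). Aldh1l1, a folate enzyme used as an astrocyte marker, had 9.30 to 30.3 CPM against 238 to 293, and S100b, a calcium-binding marker, 20.2 to 40.1 against 243 to 272. Gfap, the intermediate filament of astrocytes, stood at 36.1, 33.1, 29.0 and 33.3 CPM in NSC and 170.5, 175, 162 and 161 in AdAC direct (-2.35 ± 0.15), with a mean of 50503 CPM in AGES and 1722 in neoAC direct. Of all 6 groups, these 2 had the lowest Gfap along with AdAC CellC, whose mean was 189. The exceptions in the list were Sparc, a matrix protein, higher in NSC by a small margin at 589.9 to 1122 CPM against 592 to 806 (0.41 ± 0.15, adjusted p = 0.0172), with overlapping libraries and a call that was lost under DESeq2 size factors and without NSC 2, AdAC direct 2 or AdAC direct 3, and Acsbg1, an acyl-CoA synthetase, at 547 to 697 against 656 to 775 (-0.15, 95% interval -0.49 to 0.18).

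The receptors were more mixed. Of 26, 19 were lower, 4 higher and 3 not called, beside 48.1% lower and 38.1% higher of all genes. The median was -2.78. Fgfr3 was at 33.7, 78.3, 26.6 and 34.2 CPM in NSC and at 1378, 1516, 1361 and 1209.8 in AdAC direct (-4.98 ± 0.25), and the log2 ratio of Fgfr1 to Fgfr3 was 2.77 to 4.23 in NSC and -1.99 to -1.92 in AdAC direct. Gabrb1, a GABA receptor subunit, was at 0.0652 to 0.234 CPM against 195 to 232. Of the metabotropic glutamate receptors, Grm3 was lower (-4.19 ± 0.14) and Grm5 higher (3.70 ± 0.28), the latter at 20.3 to 33.0 CPM in NSC and 1.63 to 2.44 in AdAC direct. Grm5 averaged 269 CPM in neoAC direct, above both. Egfr, the receptor for the EGF in the NSC medium, was at 246, 228, 274 and 259.6 CPM in NSC and 83.5, 107, 93.5 and 88.8 in AdAC direct (1.44 ± 0.09, adjusted p = 1.66e-13). Ptprz1, a receptor phosphatase of glia and progenitors, was not called (1077 against 918 CPM, 95% interval -0.05 to 0.51), but was called higher in a fit of the 8 libraries alone (0.25, adjusted p = 0.0144) and with a replicate block in that fit (0.25, adjusted p = 0.0306).

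**Figure D2:**
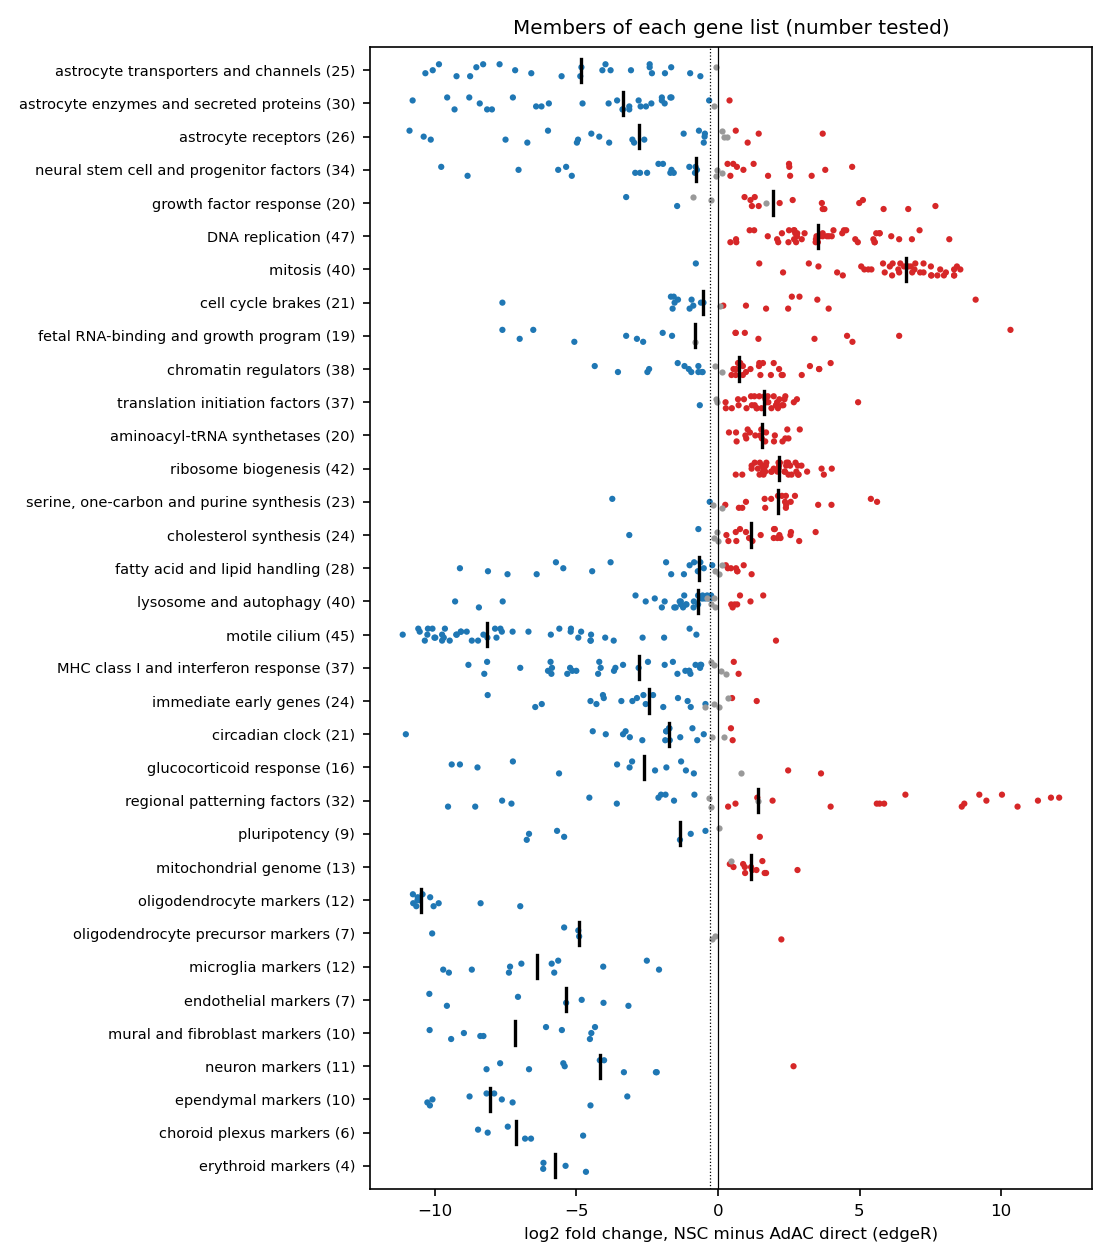
Log2 fold change (NSC over AdAC direct, x axis) of every tested member of each gene list (rows). Red points were called higher in NSC, blue points called lower, grey points not called, the black bar is the list median and the dotted line the median of all genes, -0.28. DNA replication, mitosis, aminoacyl-tRNA synthetases and ribosome biogenesis lie to the right of 0 but for Anln, and most genes of the astrocyte, cilium and oligodendrocyte lists to the left.

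Factors that define neural stem and progenitor cells did not move as a group. Of 34 tested, 13 were higher in NSC, 18 lower and 3 not called, near the shares of all genes (38.1% higher and 48.1% lower). The median was -0.77. Nes, the intermediate filament nestin, stood at 1340, 1258, 1593 and 1402 CPM in NSC and at 48.7, 53.2, 55.7 and 51.0 in AdAC direct, 26.8-fold higher (4.74 ± 0.18, adjusted p = 3.68e-18). Vim was higher by 2.51 ± 0.14, Fabp7, the brain lipid-binding protein of radial glia, by 3.31 ± 0.22, and the transcription factor Sox11 by 3.79 ± 0.11. Olig2, a factor of the oligodendrocyte lineage and of cultured neural stem cells, had 531 to 674 CPM in NSC and 165 to 197 in AdAC direct (1.77 ± 0.23). Against these, Sox2 was at 107, 105, 77.5 and 104 CPM in NSC and 162, 198, 179 and 150.2 in AdAC direct (-0.81 ± 0.11, adjusted p = 2.41e-07). Sox9 was lower by 1.68 on the log2 scale (SE 0.12), and Sox1, often used to mark neuroepithelium, was at 2.68 CPM in NSC and 96.3 in AdAC direct (-5.16 ± 0.13). The Notch target Hes5 had 1.11 to 3.70 CPM against 66.5 to 122, Prom1, which encodes the surface protein CD133, 0.0669 to 0.213 against 17.3 to 23.2, and Id4, an inhibitor of bHLH factors, 0.217 against 192. Pax6 and Hes1 were not called, with Pax6 at 36.5 to 39.0 CPM in NSC and 35.4 to 42.9 in AdAC direct. So nestin, vimentin and Sox11 were higher in NSC, while most of the SOX and Notch-linked genes listed were as high or higher in the adult astrocytes.

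Genes known to respond to growth factors such as FGF and EGF were mostly higher in NSC, in 15 of 20 cases, beside 38.1% of all genes. Mycn and Lif were lower, and Etv1, Fosl1 and Egr3 not called. The median was 1.95 (1.81 with the floor gene at its bound). Signalling itself was not measured. Spry4, a feedback inhibitor of receptor tyrosine kinases, stood at 601, 379, 629.8 and 656 CPM in NSC and at 18.6, 20.8, 15.9 and 16 in AdAC direct, 31.8-fold higher (4.99 ± 0.34, adjusted p = 3.89e-12). The ERK phosphatase Dusp6 had 403 to 527 CPM against 34.4 to 40.6 (3.67 ± 0.20), and the ETS factor Etv5 1098 to 1254 against 82.1 to 96.0 (3.76 ± 0.17). AGES, which grew with BMP4 in place of FGF and EGF, averaged 9.36 CPM of Spry4, 5.22 of Dusp6 and 32.3 of Etv5, and so lay below AdAC direct on all 3. The part of the growth factors in these levels was not tested. Myc had 169 to 243 CPM in NSC and 5.54 to 6.70 in AdAC direct (5.12 ± 0.16), whereas its paralogue Mycn had 0.191 to 0.213 and 1.64 to 2.16 (-3.24 ± 0.25). Ccnd1, the cyclin that couples growth factors to the cell cycle, was higher by 6.72 ± 0.45, and the log2 ratio of Ccnd1 to Ccnd2 was 0.62 to 1.01 in NSC and -2.51 to -2.17 in AdAC direct.

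All 47 DNA replication genes were higher in NSC, beside 38.1% of all genes, and all 47 did so without overlap, beside 35.6%; the median was 3.53. Mcm5, a subunit of the replicative helicase, stood at 294, 229, 355 and 306 CPM in NSC and at 5.64, 6.21, 5.20 and 5.50 in AdAC direct, 52.5-fold higher (5.71 ± 0.22, adjusted p = 1.53e-17). Mcm6, another subunit, had 304 to 379.8 CPM against 14.0 to 16.3 (4.45 ± 0.12), and Rrm2, the subunit that limits nucleotide supply, 265 to 316 against 4.96 to 6.26 (5.71 ± 0.19). Pcna, the sliding clamp, differed less, at 291 to 385 against 46.2 to 57.2 (2.73 ± 0.12). Exo1, a nuclease of mismatch repair outside this list but among the 12 genes above, was higher by 8.10 ± 0.25. In AGES the helicase genes were as low as in the adult cells, with Mcm5 at 3.68 CPM and Mcm6 at 7.59.

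S-phase genes are known targets of E2F factors, and the promoters were searched for 2 E2F motifs in the RefSeq windows of 250 bases before and 50 after each gene start. TTTCCCGC, or GCGGGAAA on the other strand, was found in 7 of the 39 replication genes with a promoter sequence (17.9%) and in 1.23% of the promoters of all 25748 genes outside X and Y. TTTGGCGC, or GCGCCAAA, was found in 6 of 39 (15.4%) against 0.586%. Every gene of the list that held either was higher in NSC, as were those that held neither. A pair of promoters is shown because each carries the motif upstream of the start in genes that the difference turns on. They are Mcm5 (GRCm38.p6, chr8:75109259-75109508, plus strand) and Mcm6 (chr1:128359706-128359955, minus strand), each written in the direction of the gene with the motif in capitals, 149 bases before the start in Mcm5 and 110 and 47 before it in Mcm6.
Mcm5: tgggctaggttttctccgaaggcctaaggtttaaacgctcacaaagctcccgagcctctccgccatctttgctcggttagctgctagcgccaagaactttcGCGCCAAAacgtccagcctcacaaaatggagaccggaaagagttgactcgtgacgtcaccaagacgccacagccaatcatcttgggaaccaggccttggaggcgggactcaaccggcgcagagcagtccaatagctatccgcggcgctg
Mcm6: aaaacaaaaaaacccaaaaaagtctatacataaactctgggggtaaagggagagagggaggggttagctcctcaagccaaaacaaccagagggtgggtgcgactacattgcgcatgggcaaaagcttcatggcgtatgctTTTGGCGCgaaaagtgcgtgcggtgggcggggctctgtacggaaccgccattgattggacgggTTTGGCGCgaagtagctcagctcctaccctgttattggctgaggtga

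Of 40 mitosis genes, 39 were higher, beside 38.1% of all genes, with a median of 6.64, the largest of any list higher in NSC. Top2a, the topoisomerase that untangles chromosomes, stood at 1363, 1599, 1376 and 1294 CPM in NSC and at 3.90, 3.74, 4.13 and 4.43 in AdAC direct, 347-fold higher (8.44 ± 0.17, adjusted p = 1.36e-23). Mki67, the proliferation antigen, had 878 to 1072 CPM against 3.52 to 4.94 (7.85 ± 0.20). Cdk1, the kinase that drives mitosis, was at 246, 244, 282 and 244 CPM in NSC and at 0.674, 0.834, 0.862 and 0.733 in AdAC direct (8.34 ± 0.19, adjusted p = 9.37e-23). The checkpoint kinase Bub1 reached 8.34 ± 0.27 and Hmmr, a spindle protein, 8.56 ± 0.22. Cultured and neonatal astrocytes lay between, with Top2a at 342 CPM in neoAC CellC, 258 in AdAC CellC and 133 in neoAC direct, and AGES at the adult level with 3.36. The exception was Anln, the cytokinesis protein anillin, which myelinating oligodendrocytes also make, at 219 to 244 CPM in NSC and 340.0 to 453 in AdAC direct (-0.78 ± 0.12), while the oligodendrocyte markers stood as given above.

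Many G2 and M genes share a CHR element, TTTGAA or TTCAAA, near a CCAAT box, CCAAT or ATTGG. Of 33 mitosis genes with a promoter sequence, 25 held the CHR letters (75.8%, against 19.9% of all genes), 25 the CCAAT letters (75.8% against 41%), and 22 both in the same window (66.7% against 7.9%). Ccnb2 (GRCm38.p6, chr9:70421555-70421804, minus strand), a mitotic cyclin at 42.6 to 48.1 CPM in NSC and 0.958 to 1.16 in AdAC direct, and Cdk1 (chr10:69352913-69353162, minus strand) are shown as members that hold both, with the letters of either motif in capitals. In Ccnb2 the hits began 167, 87, 54 and 21 bases before the start, and in Cdk1 208, 80, 71, 48 and 15.
Ccnb2: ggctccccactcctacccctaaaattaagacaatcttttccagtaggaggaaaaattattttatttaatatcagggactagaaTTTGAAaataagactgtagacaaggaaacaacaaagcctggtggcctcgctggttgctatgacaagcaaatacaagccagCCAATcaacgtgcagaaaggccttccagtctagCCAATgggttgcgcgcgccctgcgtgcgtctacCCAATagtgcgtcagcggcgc
Cdk1: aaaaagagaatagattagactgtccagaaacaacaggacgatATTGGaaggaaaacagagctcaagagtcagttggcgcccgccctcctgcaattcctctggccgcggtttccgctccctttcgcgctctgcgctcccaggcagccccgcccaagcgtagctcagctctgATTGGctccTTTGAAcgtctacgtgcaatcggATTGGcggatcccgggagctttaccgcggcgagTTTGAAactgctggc

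Of 21 brakes of the cell cycle, 9 were higher in NSC, 11 lower and 1 not called, near the shares of all genes (38.1% and 48.1%). Their median was -0.51. Cdkn1a, the p53 target p21, was higher (118, 137, 102 and 78.4 CPM in NSC against 23, 16.6, 18.2 and 20.1, 2.48 ± 0.21), as was Cdkn2a above. Cdkn1c, the imprinted inhibitor p57, was near silent in NSC at no more than 0.0637 CPM, and at 6.24 to 7.56 in AdAC direct, at least 72.8-fold lower in NSC. Cdkn1b, p27, was close, at 84.9 to 124 CPM against 85.5 to 94.3 (0.19 ± 0.08), and its call was lost without NSC 2, AdAC direct 2 or AdAC direct 3 (0.10, 0.18 and 0.16). Ccng2, a cyclin of resting cells, was not called and rested on NSC 2, which had 58.8 CPM against 11.4 to 16.8 in the other NSC libraries. Without NSC 2 it was lower in NSC (-0.78, adjusted p = 6.23e-07 by edgeR). NSC 2 was also the lowest NSC library for Slc1a2 and Spry4.

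Of 19 genes of the fetal growth programme tested, 9 were higher, 9 lower and 1 not called, beside 38.1% higher and 48.1% lower of all genes. Hmga2, a chromatin protein of fetal and stem cells, stood at 72.3, 66.5, 47.3 and 71.3 CPM in NSC and at most at 0.0618 in AdAC direct, at least 690.4-fold higher, and had 87 CPM on average in AdAC CellC. The imprinted hydrolase gene Mest averaged 997 against 11.8 CPM, and the RNA-binding proteins Igf2bp2 23.2 against 2.19 (3.41 ± 0.16) and Igf2bp3 7.54 against 0.317 (4.56 ± 0.42). Trim71, a stem cell ubiquitin ligase, averaged 5.67 against 0.203 CPM. On the other side lay the imprinted growth genes Igf2, at 0.228 to 0.401 CPM in NSC against 20.9 to 35.2 (-6.52 ± 0.38), and Dlk1, at least 47.7-fold lower in NSC. Lin28a, Lin28b and Sall4 had too few reads to be tested, and Igf2bp1 was at or under 0.0618 CPM in every library of both groups.

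Of 38 chromatin regulators, 24 were higher, 12 lower and 2 not called, beside 38.1% higher and 48.1% lower of all genes. The median was 0.75. Uhrf1, which brings DNA methylation to new strands, had 337 to 498 CPM in NSC and 8.38 to 9.30 in AdAC direct (5.54 ± 0.22). Dnmt1, the maintenance methyltransferase, had 391 to 465 against 49.9 to 61.0 (2.96 ± 0.14). Ezh2, the polycomb methyltransferase of dividing cells, stood at 189, 173, 194 and 194 CPM in NSC and 14.7, 15.6, 15.6 and 17.0 in AdAC direct (3.58 ± 0.10), while its paralogue Ezh1 stood at 15.2, 16.5, 14.1 and 15.8 against 89.7, 87.0, 84.4 and 84.6 (-2.49 ± 0.09). The polycomb reader Cbx2 was higher (2.25 ± 0.15) and Cbx7 lower (-4.35 ± 0.12), and the remodelling ATPase Smarca4 higher (1.59 ± 0.09) and Smarca2 lower (-1.18 ± 0.10). Dnmt3a, a de novo methyltransferase, was not called (165 against 151 CPM, 95% interval -0.04 to 0.29). The deacetylases Hdac11 and Sirt2, both also found in oligodendrocytes, were lower by 3.53 and 2.43 on the log2 scale.

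Related genes were also compared as ratios within a library, which do not depend on scaling. Over 26 pairs, the log2 ratio differed without overlap between the 4 NSC and 4 AdAC direct libraries in 25, each with an exact two-sided permutation p of 0.0286, the smallest that 4 against 4 can give, and 0.0297 after adjustment over the 26. For comparison, of all single genes 35.6% did not overlap with NSC higher and 45.7% with NSC lower, and the pairs were chosen with earlier results of these data known. A pair that holds Atp1b2, the gene of the sorting handle, is counted in the 25, and its difference is no finding. The exception was Dnmt3b to Dnmt3a, which differed by 0.43 (exact permutation p = 0.2). The ratio of Ezh2 to Ezh1 differed by 6.06, of Cbx2 to Cbx7 by 6.56, of Smarca4 to Smarca2 by 2.80 and of Smarcd1 to Smarcd3 by 1.16. The largest gap was in tubulins: Tubb5 to Tubb4a was 9.97 to 11.16 in NSC and -4.79 to -4.65 in AdAC direct, Tubb4a being abundant in myelinating oligodendrocytes. The amino acid carriers Slc7a5 and Slc7a10 gave 12.81. The glutamine carriers Slc38a1 and Slc38a3 gave 0.62.

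**Figure D3:**
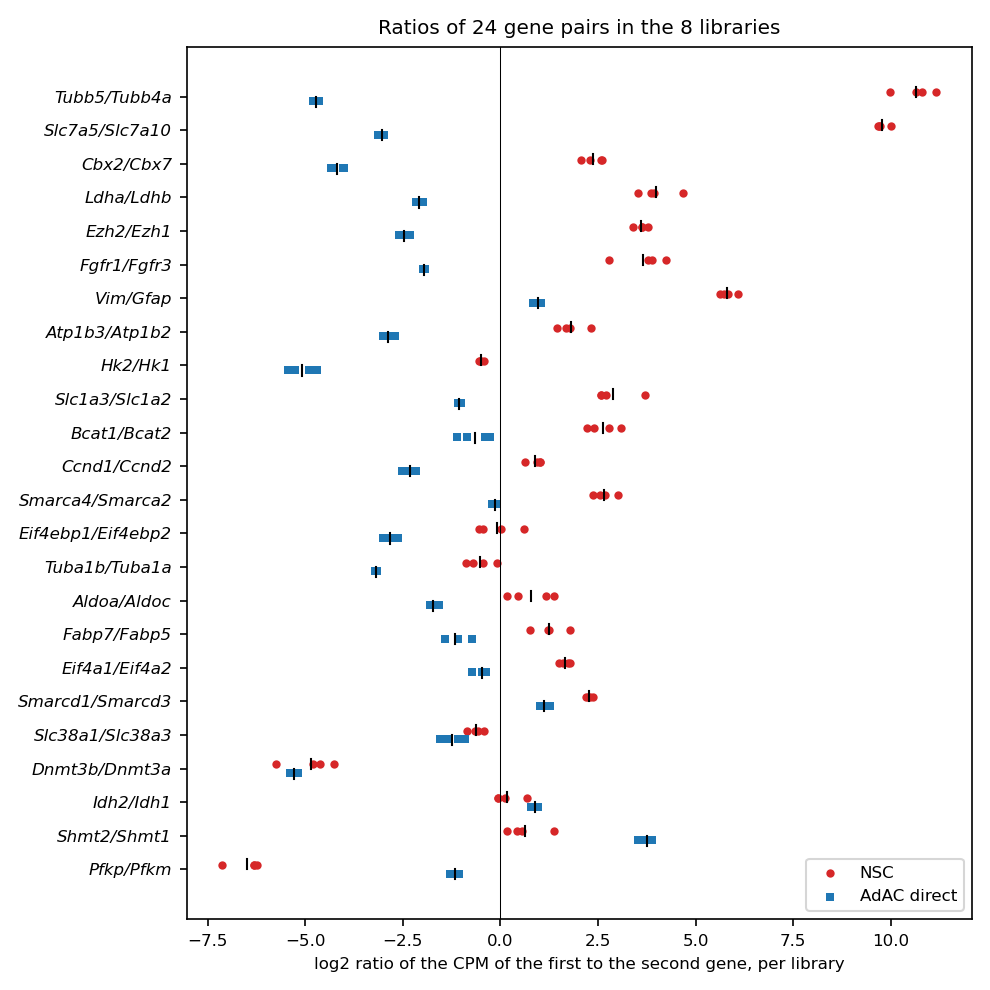
Log2 ratio of the first to the second gene of 24 of the 26 gene pairs in every library (points: 4 NSC, 4 AdAC direct). The groups are apart in every pair drawn but Dnmt3b/Dnmt3a, and Pfkp/Pfkm, Shmt2/Shmt1 and Idh2/Idh1 are those lower in NSC.

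The protein synthesis machinery was higher in NSC almost without exception. All 42 ribosome biogenesis genes were higher, with a median of 2.14, all 20 aminoacyl-tRNA synthetases, with a median of 1.54, and 34 of 37 translation initiation factors, with a median of 1.64. Among all genes, 38.1% were higher. Npm1, the nucleolar chaperone nucleophosmin, stood at 1074, 1041, 1364 and 1088 CPM in NSC and at 91.6, 80.3, 88.1 and 100.0 in AdAC direct, 12.7-fold higher (3.66 ± 0.12, adjusted p = 1.67e-19). Ncl, nucleolin, had 1266 to 2022 CPM against 169 to 194 (3.15 ± 0.11), and Eif4ebp1, the mTOR-regulated brake on cap binding, 72.8 to 143 against 2.65 to 3.71 (4.95 ± 0.21). Eif4g3, a scaffold of the cap complex, was the factor that was lower (-0.64 ± 0.06), and Eif2b4 and Eif4a2 were not called. Eif4a1, the helicase paralogue of Eif4a2, was higher by 2.09 ± 0.10, and their log2 ratio was 1.51 to 1.79 in NSC and -0.73 to -0.36 in AdAC direct.

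The ribosome itself, a family added after its values were seen, showed the same direction. Of 73 cytosolic ribosomal protein genes, 72 were higher and 1, Rpl29, not called, with a median of 2.68 and a summed 44679.6 to 59125 CPM in NSC against 7580.1 to 8459 in AdAC direct. Of 37 proteasome subunits, added likewise, 31 were higher, with a median of 1.32, and the interferon-inducible Psmb8, Psmb9 and Psmb10 were among the 6 that were not. Processed pseudogenes, many of them copies of such genes, were higher in 774 of 1139 (68%, median 1.74) and lower in 96. Since the handling of reads that match several places is not stated, reads of ribosomal protein genes and of their copies may not be separable.

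Among biosynthetic pathways, serine, one-carbon and purine synthesis was higher in 19 of 23 genes, beside 38.1% of all genes, with a median of 2.12. Asns, asparagine synthetase, stood at 77.4, 210.4, 112 and 81.8 CPM in NSC and at 2.52, 1.82, 2.79 and 2.62 in AdAC direct, 49.2-fold higher (5.62 ± 0.31), with NSC 2 the highest. The mitochondrial folate enzymes Mthfd1l and Mthfd2 were higher by 4.01 ± 0.20 and 2.57 ± 0.19, and Ppat, the entry enzyme of purine synthesis, by 2.72 ± 0.13. The first steps of serine synthesis were not: Phgdh had 334 to 442 CPM against 314 to 360.2 (0.14, 95% interval -0.13 to 0.42) and Psat1 448 to 615 against 535 to 675 (-0.16, 95% interval -0.37 to 0.04), though Psat1 was called lower under DESeq2 size factors (-0.29, adjusted p = 0.00956). Psph, which makes serine in the last step, was lower by a small margin (-0.29 ± 0.11), a call that was lost without NSC 1 or NSC 4.

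Cholesterol synthesis was higher in 19 of 24 genes, beside 38.1% of all genes, with a median of 1.16. Sqle, squalene epoxidase, had 516, 555, 417 and 496 CPM in NSC and 124, 117, 125 and 136 in AdAC direct (1.98 ± 0.09, adjusted p = 5.15e-17). NSC 3 was the lowest NSC library for this gene, and the groups did not overlap. Srebf1, the factor more tied to fatty acids, was lower (-0.69 ± 0.15). In neoAC direct, Sqle averaged 307 CPM, between the means of NSC and AdAC direct. The summed list did not: it was 6727 to 6959 CPM in neoAC direct, 5040.3 to 6844 in NSC and 2841 to 3142 in AdAC direct. The sterol regulatory element TCACCCCAC or GTGGGGTGA was in 1 of 16 promoters of the list (6.25%, against 0.633% of all genes). Lipid handling genes were divided, with 8 of 28 higher and 17 lower, beside 38.1% and 48.1% of all genes, and a median of -0.66. The synthetic enzymes Scd1 (1.19 ± 0.12), Fads1 (0.68 ± 0.09) and Fasn (0.46 ± 0.15, not called by the DESeq2 Wald test) were higher. Several genes of fat oxidation were lower, though the oxidation genes Cpt2 and Acadl were higher. Cpt1a, which brings fatty acids into mitochondria, had 66.6 to 94.3 CPM in NSC and 167 to 175 in AdAC direct (-1.20 ± 0.10), and Acadvl, the first dehydrogenase of long-chain oxidation, 35.7 to 46.9 against 132 to 147 (-1.83 ± 0.08). Pdk4, which shuts pyruvate out of the mitochondrion, was at least 437-fold lower in NSC.

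Isoforms of energy metabolism differed in their ratios too. Ldha, the lactate dehydrogenase subunit of glycolytic cells, stood at 1063, 1967, 1220.0 and 937 CPM in NSC and 88.3, 94.8, 82.5 and 79.9 in AdAC direct (3.91 ± 0.19), and Ldhb at 73.5, 77.1, 80.8 and 82.2 against 382, 378, 368 and 333 (-2.22 ± 0.11), which made a difference of 6.07 in their log2 ratio. Hk2 to Hk1 differed by 4.57, Aldoa to Aldoc by 2.51 and Bcat1 to Bcat2 by 3.28. Running the other way, the platelet-type phosphofructokinase Pfkp was at 1.20 to 2.26 CPM in NSC and 168 to 204 in AdAC direct (-6.54 ± 0.23), and Pfkp to Pfkm differed by -5.34. Shmt2 to Shmt1 differed by -3.12 although Shmt2 itself was higher in NSC (2.26 ± 0.16). Transcripts of the mitochondrial genome were higher in 12 of 13 genes, beside 38.1% of all genes, with a median of 1.17. Only 8 were apart in all libraries, beside 35.6% of all genes. The summed level was 16770.0 to 29445 CPM in NSC and 9908 to 17089 in AdAC direct, so these ranges overlapped.

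**Figure D4:**
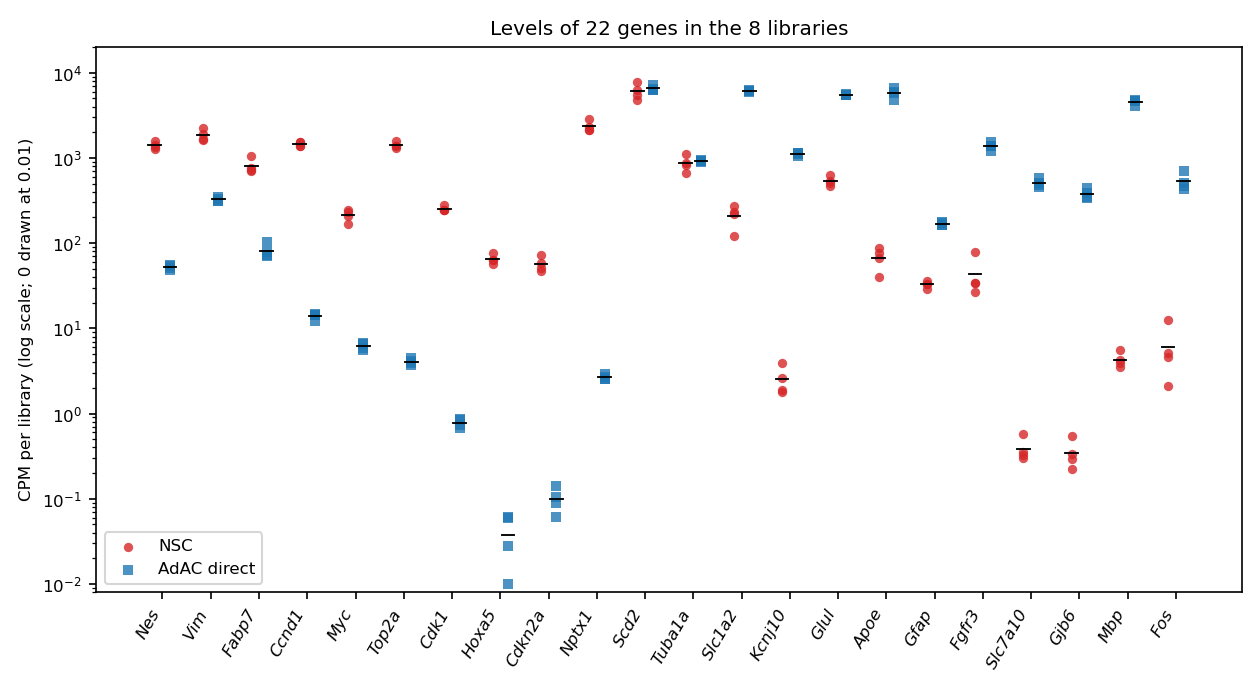
Level of 22 genes in each of the 8 libraries (CPM, log scale, 0 drawn at 0.01), points for libraries and bars for the mean of 4. Top2a, Cdk1 and Nes sit high in all NSC libraries and Slc1a2 and Glul in all AdAC direct libraries, with no overlap.

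Lysosome and autophagy genes were lower in 29 of 40, beside 48.1% of all genes, higher in 7 and not called in 4, with a median of -0.70. Differences were modest for the most abundant members, Psap, a sphingolipid activator precursor (-1.31 ± 0.09), Lamp1, a membrane protein (-0.86 ± 0.09), and Ctsd, a protease (-0.33 ± 0.12), and very large for a few. Gusb, the enzyme beta-glucuronidase, stood at 0.0978, 0.0911, 0.0637 and 0.334 CPM in NSC and at 29.6, 31.0, 27.0 and 27.6 in AdAC direct, 195-fold lower (-7.60 ± 0.19, adjusted p = 7.64e-22). Its mean was 0.0703 CPM in AGES, of the same stem cell line, and 37.7, 56.9 and 70.7 in neoAC CellC, neoAC direct and AdAC CellC. The proteases Ctsz, at 0.0911 to 0.223 against 85.9 to 95.3 CPM, and Ctsh, at 0.0326 to 0.159 against 34.3 to 41.2, had the same layout, near silent in NSC and AGES and at 17.2 CPM or more in every primary group. The E-box CACGTG, part of the motif read by TFEB, was in 10 of 29 promoters of the list (34.5%, against 8.11% of all genes), of which 5 belonged to genes lower in NSC and 2 to genes higher.

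Motile cilium genes were lower in NSC in 44 of 45 cases, beside 48.1% of all genes, with a median of -8.14 (-7.87 with floor genes at their bound). Foxj1, the factor that turns on motile cilia, had 18.2, 18.3, 22.9 and 14.0 CPM in NSC and 427, 438, 396 and 402 in AdAC direct, 22.6-fold lower (-4.50 ± 0.17). The radial spoke protein Rsph4a fell further apart, at 0.0326 to 0.152 against 123 to 161 CPM (-10.58 ± 0.31), as did the dynein chain Dnah7b (-10.24 ± 0.30) and Ccdc153 (-10.08 ± 0.24). Spag6, a central apparatus protein, was higher in NSC at 0.287 to 1.34 against 0.178 to 0.247 CPM (2.05 ± 0.40). The ependymal markers, some of them cilium genes, summed to 1541 to 1775 CPM in AdAC direct and 16.3 to 25.9 in NSC, and the part of ependymal cells in the cilium list was not tested. The X-box letters GTTGCCATG or CATGGCAAC were in 0 of 37 promoters of the list and in 0.882% of all.

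MHC class I and interferon response genes were lower in 31 of 37, beside 48.1% of all genes, higher in 2 and not called in 4. The median was -2.80 (-2.47 with floor genes at their bound). The class I heavy chains H2-K1 and H2-D1 had 44.4, 84.4, 44.2 and 39.3 and 9.88, 17.4, 7.13 and 6.89 CPM in NSC, and 107, 119.7, 122 and 124 and 61.0, 74.3, 82.8 and 70.4 in AdAC direct. Both were lower in NSC without overlap, with NSC 2 the highest NSC library for each (-1.15 ± 0.20 and -2.80 ± 0.30). B2m, their light chain, went the other way at 71.2, 106, 73.5 and 75.4 CPM against 49.1, 46.7, 50.6 and 49.7 (0.73 ± 0.18, adjusted p = 0.000622). Nlrc5, the activator of class I genes, had 0.0304 to 0.196 CPM against 4.73 to 6.03 (-5.88 ± 0.35), and the RNA sensor Ifih1 was at least 88.2-fold lower. Bst2, the interferon-induced protein tetherin, had 0 to 0.261 CPM in NSC and 4.15 to 6.72 in AdAC direct (-5.22 ± 0.48), while its mean was 80.7 in neoAC CellC.

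The core letters of the interferon-stimulated response element, TTTCNNTTT or AAANNGAAA, were found in 15 of 29 promoters of the list (51.7%, against 12% of all genes). Of those 15 genes, 12 were lower in NSC and 1, B2m, was higher. Bst2 (GRCm38.p6, chr8:71537473-71537722, minus strand) and B2m (chr2:122147437-122147686, plus strand) are shown because both hold the letters, in capitals, at a like distance from the start and differed in opposite directions. The hits began 129 and 123 bases before the start in Bst2 and 138 in B2m.
Bst2: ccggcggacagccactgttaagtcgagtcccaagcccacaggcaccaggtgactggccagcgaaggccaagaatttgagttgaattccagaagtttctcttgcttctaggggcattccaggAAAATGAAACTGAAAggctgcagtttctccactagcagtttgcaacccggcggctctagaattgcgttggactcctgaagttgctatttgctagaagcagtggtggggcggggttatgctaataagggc
B2m: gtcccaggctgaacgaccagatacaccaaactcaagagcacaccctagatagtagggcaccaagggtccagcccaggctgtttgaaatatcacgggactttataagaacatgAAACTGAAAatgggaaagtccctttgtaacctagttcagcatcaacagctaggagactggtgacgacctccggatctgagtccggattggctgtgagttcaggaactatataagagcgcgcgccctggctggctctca

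Immediate early genes, which respond within minutes to stimuli and to tissue handling, were lower in 18 of 24, beside 48.1% of all genes. Another 2 were higher and 4 not called, and the median was -2.42. Fos stood at 12.4, 4.61, 2.10 and 5.15 CPM in NSC and at 468, 698, 511 and 437 in AdAC direct, 87.3-fold lower (-6.45 ± 0.40, adjusted p = 8.87e-13), and averaged 4054 in neoAC direct. Egr1 had 23.6 to 104 CPM against 209 to 328 (-1.93 ± 0.30), Nr4a1 6.18 to 7.59 against 60.8 to 85.0 (-3.41 ± 0.18), and Klf6 85.8 to 111 against 35.7 to 42.9, higher in NSC (1.37 ± 0.14). The adult cells had been freed from tissue with enzymes and sorted, the NSC came from culture, and the part of this handling cannot be told apart from that of cell type.

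Clock genes were lower in 17 of 21, beside 48.1% of all genes, and higher in 3, with a median of -1.73. The output factor Dbp had 12.4, 23.8, 8.28 and 13.8 CPM in NSC and 199, 257, 254 and 200.3 in AdAC direct (-3.96 ± 0.22), and the repressor Nr1d1 12.9, 11.2, 22.5 and 12.9 against 323, 349, 309.6 and 293 (-4.42 ± 0.16). Per1 and Arntl, which peak at opposite times of day in tissues, were both lower, by 1.82 and 1.86 on the log2 scale. The sources used here give no time of day for sampling. The E-box CACGTG was in 5 of 18 promoters of the list (27.8%, against 8.11%) and the D-box TTATGTAA or TTACATAA in 1 of 18 (5.56%, against 1.13%). Glucocorticoid response genes were lower in 13 of 16, beside the same 48.1%, with a median of -2.63. The metallothionein Mt2 had 1.84 to 2.64 CPM in NSC and 297 to 385 in AdAC direct (-7.24 ± 0.16), and Sgk1, a kinase, had 19.6 to 34.3 against 59.5, 38.7, 149.6 and 206, an uneven spread over the adult libraries. Fkbp5, a chaperone of the receptor and a well-known target, ran the other way, at 77.4 to 97.1 CPM in NSC and 11.9, 4.45, 5.23 and 7.59 in AdAC direct (3.64 ± 0.29, adjusted p = 4.24e-11).

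Regional identity genes moved in both directions. Of 32 patterning factors tested, 18 were higher in NSC, 11 lower and 3 not called, beside 38.1% higher and 48.1% lower of all genes. The median was 1.41 (1.00 with floor genes at their bound). Several forebrain factors were higher in the adult cells: Otx2, of fore- and midbrain, at 19.9 to 24.4 CPM against 0 to 0.121 in NSC (-8.57 ± 0.29), Lhx2 at 92.1 to 120.0 against 23.4 to 25.8 (-2.10 ± 0.11), and Emx2, of the cortex, at 20.3 to 24.1 against 6.56 to 9.23 (-1.55 ± 0.12). Hox genes were read in NSC: Hoxa3 at 44.0 to 52.2 CPM, Hoxa2 at 19.2 on average and Hoxb4 at 12.1, and at 0.0406 or below on average in AdAC direct for every Hox gene named here. The midbrain-hindbrain factors En1 and Gbx2 were also higher in NSC, by 3.98 ± 0.40 and 5.61 ± 0.51. Not all factors followed this division. Pax3, a factor of the dorsal neural tube, averaged 0.0869 CPM in NSC and 2.14 in AdAC direct (-4.54 ± 0.41), and Irx3 8.04 and 14.3 (-0.83 ± 0.17), while Vax2, a factor of the eye and ventral forebrain outside the list, averaged 18.2 and 0.0399. The cerebellum had been removed from the adult brains, and the sources used here give no region for the cultured cells. Of 20 pluripotency genes, 9 had enough reads to be tested, with 1 higher and 7 lower in NSC. Pou5f1, Zfp42, Dppa3, Dppa4, Utf1, Fgf4, Tcl1 and Gdf3 had no read in any NSC library. With up to 3 counts allowed in each library, 14 of the 20 were at the floor in NSC and 9 in AdAC direct. In AdAC direct 7 had no read at all, so silence in this list was not particular to NSC. Nanog averaged 0.834 CPM in NSC and 2.13 in AdAC direct.

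Genes at the counting floor made up a set of their own. Of 9916 protein-coding genes with a mean of at least 10 CPM in AdAC direct, 253 (2.55%) had 3 counts or fewer in every NSC library. In the other direction, of 8898 with at least 10 CPM in NSC, 12 (0.135%) had 3 counts or fewer in every AdAC direct library. Those 12 were 6 Hox genes (Hoxa2, Hoxa3, Hoxa5, Hoxa7, Hoxb3 and Hoxb4), the developmental factors Pax9, Gata4 and Vax2, Hmga2 and the mitotic genes Depdc1a and Ska1. Gata4, a factor of heart and endoderm, was at 17.0, 15.7, 20.6 and 18.2 CPM in NSC, at least 192-fold higher, and at 14.5 in AGES.

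Of the 253 genes silent in NSC, 159 were at the floor in AGES as well. Means of at least 10 CPM were found for 129 in neoAC CellC, 74 in neoAC direct and 73 in AdAC CellC, and for 32 in all 4 primary groups. No share over all genes is given beside these counts. By the way they were chosen, these 32 had reads in the neonatal and adult isolates, cultured or not, and next to none in NSC. The adult isolates also held markers of other cell types, and the part of those cells was not tested. They included cilium genes (Spef2, Tekt1), but also genes with roles not tied to a region or a cilium. P4htm, a hydroxylase of the endoplasmic reticulum, had 53.8, 58.9, 55.2 and 50.2 CPM in AdAC direct and at most 0.1 in NSC, at least 567-fold lower. Slc50a1, a sugar transporter, was at least 448-fold lower, Hebp1, a haem-binding protein, at least 327-fold, Dnajc15, a mitochondrial co-chaperone, at least 213-fold, Trim25, a ubiquitin ligase of antiviral signalling, at least 204-fold, and Ntpcr, a nucleotide triphosphatase, at least 139.9-fold. Their AGES means were 0.257, 0.145, 0.0929, 0.0720, 0.0397 and 0.00801 CPM. Since NSC and AGES share a single cell line, line and cell state cannot be told apart for these genes.

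**Figure D5:**
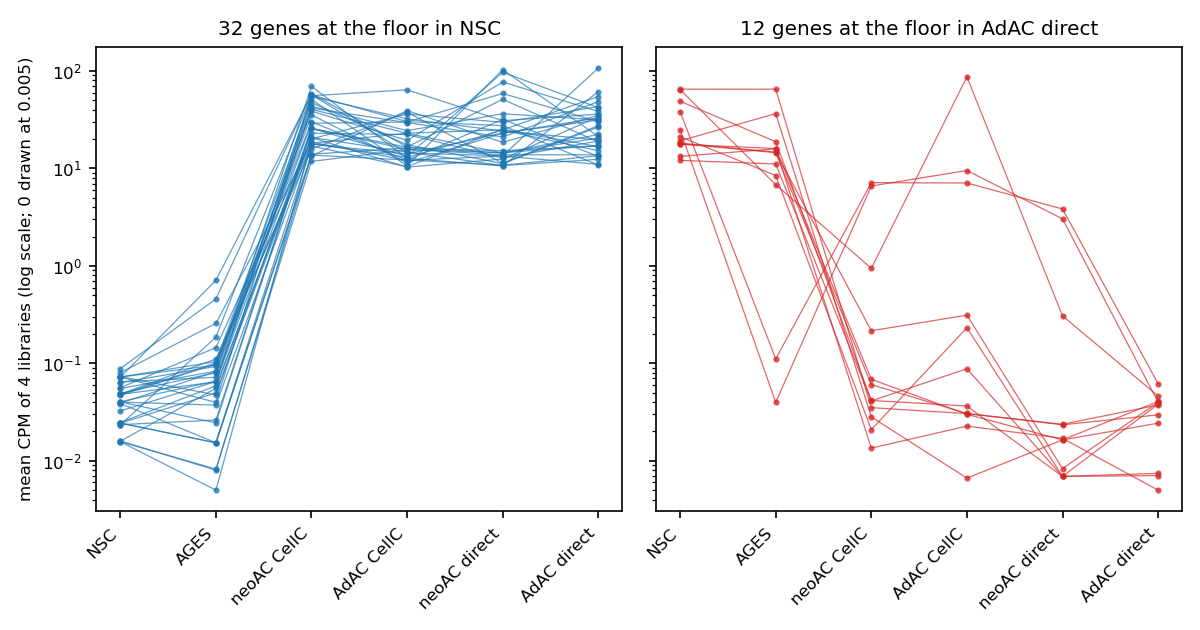
Mean CPM in the 6 groups (log scale, 0 drawn at 0.005) of the 32 genes at the floor in NSC with at least 10 CPM in all 4 primary groups, and of the 12 genes at the floor in AdAC direct with at least 10 CPM in NSC. Over the 32, AGES means stay at or below 0.712 CPM, the value of Spef2. Of the 12, Depdc1a and Ska1 drop to 0.111 and 0.0397 CPM in AGES, and Hmga2 is at 6.81. Hmga2 is the member of the 12 that is high in AdAC CellC, at 87 CPM.

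A gene that differs between the substrains was also read. Nnt, a mitochondrial transhydrogenase gene that carries an internal deletion in C57BL/6J but not in C57BL/6N, had 94.1, 109, 105 and 92.9 CPM in NSC and 25.2, 26, 25.3 and 29.6 in AdAC direct, 3.78-fold higher (1.92 ± 0.07, adjusted p = 2.15e-18). AGES averaged 98.5 CPM and the other 3 primary groups 35.9 to 50.7, so the groups from C57BL/6N lay above those from C57BL/6J. The C57BL/6N groups are also those derived from stem cells, so substrain and origin cannot be told apart here. Counts per gene do not show the deletion itself.

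Autosomes differed little. Their median log2 fold changes ran from -0.56 on chromosome 5 and -0.55 on chromosome 12 to 0.09 on chromosome 18, around -0.28 for all genes. Among the 10378 genes with a mean of at least 10 CPM, the median was 0.23 and the range -0.16 (chromosome 12) to 0.51 (chromosomes 13 and 15). Direction also varied with gene length. Over protein-coding genes with a mean of at least 1 CPM, cut by length into 5 sets of 2557, the median was 0.20 in the shortest set and -0.40 in the longest, which begins at 79.1 kb. It was -0.84 for the 775 genes over 200 kb and -1.91 for the 162 over 500 kb, of which 67.9% were lower in NSC and 21% higher.

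Some of the values above carry a limit of their own. The strand setting of the counting is not stated in the sources used here, and Acadvl, Aldh1l1, Bcas1, Bcat1, Bcat2, Cbx7, Ccnd1, Ccnd2, Cdkn1a, Cdkn1c, Dbp, Dnmt3a, Eif2b4, Eif4a2, Emx2, Ezh2, Fgfr1, Fgfr3, Fosl1, Gbx2, Glul, Gpr17, Hdac11, Hes5, Hk1, Hmga2, Hoxa3, Hoxa7, Hoxb3, Id4, Igf2bp3, Irx3, Lamp1, Lin28a, Mest, Mt2, Nr1d1, Otx2, Pax9, Pdgfra, Pfkp, Pou5f1, Ppat, Prom1, Psmb8, Psmb9, Psph, Sall4, Shmt1, Slc1a2, Slc7a10, Smarcd1, Smarcd3, Spag6, Srebf1, Tnr and Trim71 overlap exons of a gene on the other strand by at least 100 bases, so reads of both may be mixed there. With 1 library left out, the lower call of Ctsd was lost (-0.27 without NSC 4), and genes without a call gained one: Hes1 without NSC 3 (0.35), Hk1, Scd2 and Egr3 without NSC 2 (-0.29, -0.25 and -1.28), and Clock and Etv1 without NSC 1 (-0.26 and -0.30). Haemoglobin, H2 and Hox genes have close relatives whose reads could be shared.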

How the data were processed

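RNA was measured in 24 libraries (TruSeq Stranded mRNA, polyA-selected, paired reads of 100 nt). Per the labels and the study's methods, the authors demultiplexed with bcl2fastq 2.20, aligned to GRCm38 with STAR 2.7.3a and counted exons per gene with featureCounts, and deposited raw read counts per gene, 1 column a sample. Strand setting, treatment of reads with several matches, and whether reads or pairs were counted are not given in the sources used here. Groups came from the labels.

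From the counts, genes were filtered with filterByExpr, libraries scaled by TMM and all 6 groups fitted at once by edgeR 4.0.16 (R 4.3.3, limma 3.58.1), with its robust quasi-likelihood test, two-sided, of NSC minus AdAC direct and Benjamini-Hochberg adjustment over all 19691 genes tested. The SE is the log2 fold change over the square root of F. Genes on X and Y took part in the fit and are not described, nor are 52 tested genes without a place in the Gencode vM21 annotation used here for position and type. A gene with 3 counts or fewer in every library of a group was taken to be at the floor, and its fold is a bound against 3 counts a library, which covers counting error only. Pair ratios used log2 CPM with a prior count of 2 and an exact permutation test (scipy 1.17.1). Promoters are RefSeq windows of GRCm38.p6. The scripts were tested on simulated counts.

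The comparison, the gene lists, the pairs and the motifs were chosen with earlier results of these data known, and several lists share genes. Genes named are the 12 highest and 12 lowest by log2 fold change (protein-coding, without exons opposite, 50 CPM or more on average in the group where they are higher, libraries not overlapping), the 8 most abundant of each group, in each list up to 2 members by level and 2 by fold change, further members where their role needs it, the pair genes and Nnt. Genes at the floor, ribosomal proteins and proteasome subunits were added after their values were seen. NSC replicates are cultures of 1 cell line and AdAC direct replicates pools of 2 mice, so p-values measure the spread between these. No libraries were near enough alike to be 1 deposited more than once. Replicate numbers are shared by the groups but pair nothing: the correlations of deviations between same-numbered libraries were -0.151, 0.0336, -0.0273 and -0.104. Alternatives covered scaling, filters, DESeq2 1.42.0, the samples in the fit, the block and leaving out each library. Some genes and 2 of the gene pairs tested are left out of the text and plots.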

Additional observations from a re-analysis of the deposited data

Results flagged for a closer look

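In 372 groups of 4 libraries (260 of them the values of a single gene with a group mean of at least 10 CPM, the rest list sums, pair ratios and total counts), 27 held a library whose distance from the nearest other took up more of the range than Dixon's 95% critical value. Chance flags about 1 in 20 such groups, or 18.6 here. Of the 27, 18 were NSC and 9 AdAC direct, and they fell mostly on NSC 2 (8), NSC 3 (9) and AdAC direct 4 (5). Each is given as a value with the median of the other 3 libraries.

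NSC 2 was high for Fgfr3 (78.3 CPM against 33.7), the fatty acid carrier Fabp5 (445 against 303), H2-K1 (84.4 against 44.2) and Hoxb4 (14.9 against 11.1), and low for Chrm3 (119.9 against 127). It was also high for the summed MHC class I and interferon list (442 against 348 CPM), the summed oligodendrocyte markers (21.8 against 14.9) and the log2 ratio of Slc1a3 to Slc1a2 (3.69 against 2.58).

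NSC 3 was high for Cdk1 (282 CPM against 244), Fabp7 (1039 against 729), Hsp90ab1, a chaperone (4518 against 3713), Npm1 (1364 against 1074), Rars, the arginyl-tRNA synthetase (216 against 173), Serpine2 (4668 against 3181), the summed translation initiation factors (12282 against 11386) and the log2 ratio of Slc7a5 to Slc7a10 (10 against 9.69), and low for the summed astrocyte transporters (3204 against 3344). NSC 4 was low for the log2 ratio of Pfkp to Pfkm (-7.12 against -6.32).

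AdAC direct 4 was low for the adrenergic receptor Adra1a (16.2 CPM against 18.7), Mbp (4105 against 4694) and Smarca2 (150.1 against 165), and high for Nnt (29.6 against 25.3) and the nucleolar protein Nop58 (19.5 against 16.3). AdAC direct 2 was low for Mog (568 against 629) and Musk (53.4 against 57.6) and high for Tubb5 (87.5 against 78.1), and AdAC direct 3 high for the summed MHC class I and interferon list (1072 against 971).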

How the results depend on the processing

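The call of 16328 genes became 10039 when 10 counts were asked in every library (5027 lower, fewer genes being tested), 17697 with the DESeq2 Wald test and 16203 to 16396 with a library left out. With a log2 fold change over 1 as well, 4708 genes were higher, and lists shrank to 7 lower for cell cycle brakes, 15 higher for chromatin regulators, 17 lower for lysosome and 7 higher for the mitochondrial genome. With 10 counts in every library, which removes members silent in a group, genes lower were 2 (fetal programme), 16 (motile cilium), 16 (MHC class I and interferon), 8 (glucocorticoid), 2 (pluripotency), 2 (oligodendrocyte precursor), 0 (microglia), 0 (endothelium), 2 (mural and fibroblast), 1 (neuron), 2 (ependyma), 1 (choroid plexus) and 0 (erythroid), and patterning factors higher were 3. On the chromosomes, the median of chromosome 5 was -0.02 and of chromosome 18 0.50 over genes of at least 10 CPM, -0.62 and 0.02 with library size scaling, and chromosome 5 ran from -0.58 to -0.53 with a library left out. The median of all genes, -0.28, was 0.23 over those of at least 10 CPM. Of 4870 values for 312 named genes, 72 lost and 54 gained their call. Another 2 turned direction: Ccng2, not called, ran from -0.78 (without NSC 2) to 0.33 with a library left out, and Cdkn1b, called at 0.19, was -0.05 with 10 counts in every library. All 260 pair values kept direction. The permutation test was rerun only with a smaller prior count, where every pair kept its call. With a library left out, the pair difference moved by less than the larger SD of the groups, and no test was run. The replicate block leaves a mean difference unchanged by construction.

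In a fit of the 8 libraries alone, 15074 genes were called, and 14817 with the replicate block (6789 higher, 8028 lower), where 2 erythroid genes were lower with the block and 2 without. Since 1 of 4 NSC libraries correlated best with its own number, the numbers do not pair the libraries. Genes near the floor are limited by depth: a fold there is a bound.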

Other observations

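Few abundant genes stayed level between the groups. Of 1625 protein-coding genes with a mean of at least 100 CPM, 141 were not called, and 225 had a 95% interval of the log2 fold change between -0.5 and 0.5. These included the RNA helicase Ddx5 (1035 ± 47.1 against 1192 ± 95.4 CPM, SD, n = 4 a group), Dbi, which binds acyl-CoA (739 ± 73.6 against 793 ± 72.7), the tubulin Tuba1a (869 ± 184 against 919 ± 16.2), Clstn1, a calsyntenin (453 ± 23.9 against 488 ± 20.6), the adhesion receptor Adgrg1 (444 ± 62.3 against 474 ± 30.4) and the ubiquitin gene Ubb (441 ± 25.6 against 460.1 ± 36.7). Ddx5 was nevertheless called lower (-0.20, adjusted p = 0.0322 by edgeR), a call lost without NSC 1, NSC 2, NSC 3, NSC 4 or AdAC direct 4. Levelness here is relative to the scaling: DESeq2 size factors shifted the fold changes by -0.13 in the median. Under those factors edgeR called Dbi, Clstn1 and Ubb lower (-0.23, -0.24 and -0.19), but not Tuba1a and Adgrg1.

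Kinds of gene differed in direction. Protein-coding genes were higher in NSC in 5976 and lower in 7255 of 15050 (median -0.22). Of 702 lincRNA genes, 112 were higher and 471 lower (median -2.12, or -1.67 with floor genes at their bound), and of 688 antisense genes 104 were higher and 466 lower (-2.01, or -1.70).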
